A study of Mus musculus with 13 samples.

Results

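The activin, myostatin and follistatin system was followed here through 10 genes listed by symbol for their part in the control of muscle growth: *Inhba*, *Inhbb*, *Mstn*, *Gdf11*, *Acvr2a*, *Acvr2b*, *Acvr1b*, *Fst*, *Fstl3* and *Fstl1*. All 10 were found among the 23418 genes of the deposited count table. The rule that lists them uses no measured value, although earlier results of these data were known when they were chosen. The series looked in muscle for transcripts that drive satellite cells, which rebuild muscle fibres, towards differentiation, and sequenced RNA of mouse cells in 3 groups. These were FAPs from muscle (4 libraries, numbered 2 to 5), FAPs from lung (5 libraries, 1 to 5) and MEFs (4 libraries, 1 to 4). A FAP is, in this field, a fibro/adipogenic progenitor, a mesenchymal cell of the tissue interstitium. A MEF is a mouse embryonic fibroblast. Neither abbreviation is spelled out in the labels. Not given in the sources used here are strain, genotype, sex, age, any treatment, the gate used for FAPs and how MEFs were grown. The parabiosis experiments of the series are not analysed here.

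Activins and myostatin are secreted dimers of the TGF-beta superfamily. They bind a type II receptor, ACVR2A or ACVR2B, which then activates a type I receptor such as ACVR1B (also called ALK4), and the signal runs through SMAD2 and SMAD3 to the nucleus. In skeletal muscle this signal restrains growth, and animals that lack myostatin have enlarged muscles. Follistatin and FSTL3 bind activins, myostatin and GDF11 outside the cell and keep them from their receptors, whereas FSTL1 shares the follistatin-like domain but is not known as a strong activin antagonist. All of these ligands are made as precursors, and proteases cut them before they can signal.

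Total counts per library were 41327292 to 44699463 for muscle FAPs, 28636183 to 35464622 for lung FAPs and 33756915 to 41466585 for MEFs. Levels are in CPM, which scales each library's counts to a common total, with TMM factors, and a difference passed at an adjusted p under 0.05 in edgeR's quasi-likelihood test with Benjamini-Hochberg adjustment over the 15412 genes tested. The 5 FAP markers (*Cd34*, *Dpp4*, *Ly6a*, *Pdgfra* and *Pi16*) summed to 4756 to 5460 CPM in muscle FAP libraries, 4260 to 8810 CPM in lung FAP libraries and 115 to 162 CPM in MEF libraries. Markers of satellite cells and myoblasts (8 genes, *Vcam1* and *Des* making up most) summed to 151 to 328 CPM in muscle FAPs, 278 to 582 CPM in lung FAPs and 90.7 to 97.4 CPM in MEFs. Of these *Pax7*, the defining gene of satellite cells, had 0 counts over the muscle FAP libraries. Among the 7 tested markers of this list, 2 were higher and 1 lower in muscle FAPs against lung FAPs, and 4 did not pass. Of all tested genes 23.2% were higher and 25.0% lower. The lung FAP libraries also carried markers of other cells: 10 genes of lung epithelium summed to 27.4 to 8781 CPM in lung FAPs, with lung FAP 3 at the top, against 3.69 to 6.0 CPM in muscle FAPs. Macrophage and blood markers (9 of 10 listed were found) summed to 10.6 to 12.3 CPM in muscle FAPs, 58.6 to 779 CPM in lung FAPs and 132 to 486 CPM in MEFs. Pericyte and smooth muscle markers (10 genes) summed to 108 to 116 CPM in muscle FAPs, 608 to 2345 CPM in lung FAPs and 2235 to 3847 CPM in MEFs. Endothelial markers (9 genes) summed to 211 to 291 CPM in muscle FAPs, 205 to 881 CPM in lung FAPs and 173 to 203 CPM in MEFs, and *Tek*, an endothelial receptor, alone averaged 252 ± 35.9 CPM in muscle FAPs (SD, n = 4). Against lung FAPs, muscle FAPs had 8 of the 10 pericyte and 8 of the 9 endothelial markers lower, and 1 of each list higher. Over all tested genes 25.0% were lower and 23.2% higher in that comparison. Tenocyte markers (7 genes) summed to 1362 to 2302 CPM in muscle FAPs, 98.8 to 187 CPM in lung FAPs and 47.4 to 53.6 CPM in MEFs. Mesothelial markers (6 genes) summed to 1.21 to 28.2 CPM in muscle FAPs, 415 to 948 CPM in lung FAPs and 120 to 157 CPM in MEFs. Genes of dividing cells (5 genes, *Mki67* and *Top2a* among them) summed to 2.99 to 7.40 CPM in muscle FAPs, 6.55 to 9.51 CPM in lung FAPs and 56.1 to 83.7 CPM in MEFs. The part of these other cells and of growth state in the differences below was not tested, and in bulk RNA fewer cells of a type cannot be told apart from less RNA per cell.

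The muscle FAPs stood apart mainly by much *Fst*, the follistatin gene, and by little *Fstl3*. Their *Fst* level was above that of lung FAPs by 3.0-fold and above that of MEFs by 4.76-fold. Their *Fstl3* level was below that of lung FAPs by 4.73-fold and below that of MEFs by 3.15-fold. The MEFs stood apart by the ligands *Inhba* and *Gdf11*, which were 13.5-fold and 4.97-fold lower in muscle FAPs and 35.0-fold and 11.9-fold lower in lung FAPs. MEFs were also lowest for *Fstl1*, *Acvr1b* and *Acvr2a*, which were 4.66-fold, 4.16-fold and 2.18-fold higher in muscle FAPs. In lung FAPs the same genes were 3.74-fold, 3.04-fold and 2.25-fold higher than in MEFs. Myostatin itself was barely detected in any group. Of the 10 genes, 9 could be tested. For muscle FAP against lung FAP, 6 passed as higher and 1 as lower, and 2 did not pass, where 23.2% of all tested genes were higher and 25.0% were lower. For muscle FAP against MEF, 5 passed as higher and 3 as lower, and 1 did not pass, where 36.1% of all tested genes were higher and 37.3% lower. For lung FAP against MEF, 5 passed as higher and 3 as lower, and 1 did not pass, where 37.8% of all tested genes were higher and 36.6% lower. With lung FAP 2 and 3 left out, muscle FAP against lung FAP gave 5 higher and 1 lower. The median log2 fold change of the 9 genes was 1.20 for muscle FAP over lung FAP, against -0.04 over all tested genes. Without muscle FAP 5 that median was 0.56, and by limma-voom it was 0.58. Without muscle FAP 5, and likewise without muscle FAP 3, 4 of the genes were higher and 1 lower. The median of all 9 was 1.12 for muscle FAP over MEF (-0.04 over all genes) and 0.59 for lung FAP over MEF (0.02 over all genes). The comparisons share libraries pairwise, so their counts are not independent.

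**Figure D1:**
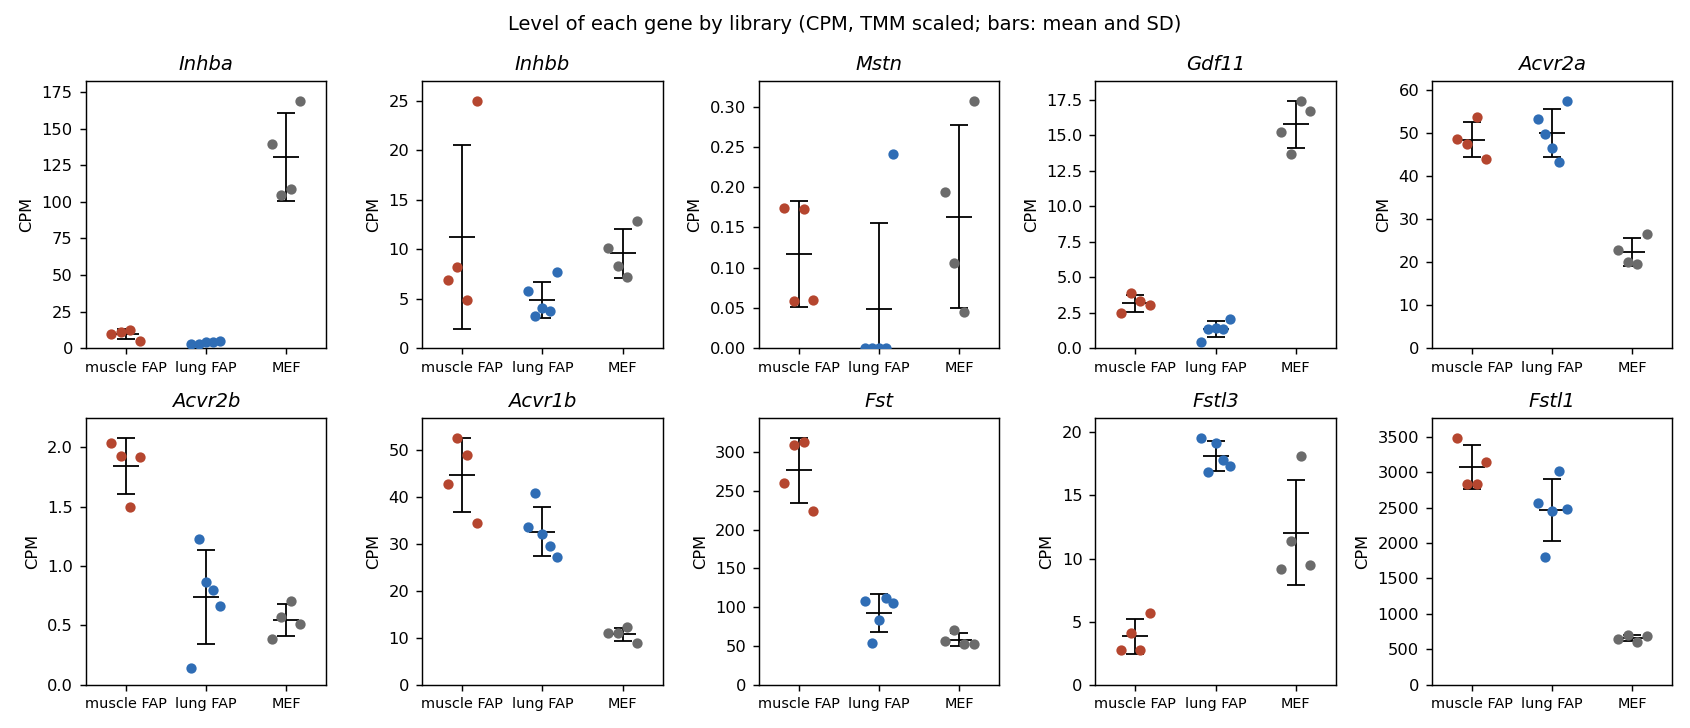
Level of each of the 10 genes in every library, in CPM scaled by TMM (vertical axes start at 0 and differ between panels), with muscle FAP, lung FAP and MEF side by side. Points are libraries, the long bar is the mean and the short bars mark 1 SD. *Inhba* and *Gdf11* are highest in the 4 MEF libraries, *Fst* in the 4 muscle FAP libraries and *Fstl3* lowest in the 4 muscle FAP libraries, and 1 muscle FAP library lies far above the rest for *Inhbb*.

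To show the base composition at the starts of 3 members with large differences, their promoters are printed here from RefSeq on build GRCm38.p6, each as the gene's own strand from 250 bases before the annotated start to 50 after it. They belong to *Inhba* and *Gdf11*, the ligands highest in MEFs, and to *Fstl3*, the binder lowest in muscle FAPs. Capitals mark, on either strand, each match to the core of a SMAD box (CAGAC), to a GC box (GGGCGG) and to a common form of the start-site motif bound by TBP (TATAAA). Neighbouring GC boxes can share bases.
Inhba: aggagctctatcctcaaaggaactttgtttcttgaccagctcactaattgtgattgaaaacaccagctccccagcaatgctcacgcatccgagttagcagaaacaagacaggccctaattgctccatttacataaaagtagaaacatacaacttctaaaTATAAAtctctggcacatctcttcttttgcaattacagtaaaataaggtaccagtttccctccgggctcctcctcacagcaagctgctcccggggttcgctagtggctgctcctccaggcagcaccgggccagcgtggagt
Gdf11: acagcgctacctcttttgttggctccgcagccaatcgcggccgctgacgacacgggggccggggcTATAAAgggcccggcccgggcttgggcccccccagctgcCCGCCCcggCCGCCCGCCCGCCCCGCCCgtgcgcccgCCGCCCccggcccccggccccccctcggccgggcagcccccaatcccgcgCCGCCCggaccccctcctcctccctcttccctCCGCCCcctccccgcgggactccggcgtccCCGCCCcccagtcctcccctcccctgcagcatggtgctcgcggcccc
Fstl3: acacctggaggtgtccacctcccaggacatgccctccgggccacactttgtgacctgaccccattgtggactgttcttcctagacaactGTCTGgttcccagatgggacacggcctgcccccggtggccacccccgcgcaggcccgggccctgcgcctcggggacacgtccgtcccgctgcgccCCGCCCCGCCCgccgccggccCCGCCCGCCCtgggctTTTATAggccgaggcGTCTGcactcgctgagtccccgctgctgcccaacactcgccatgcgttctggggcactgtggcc

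The *Inhba* window lies at chr13:16011601-16011900 on the plus strand. It is 47.7% G and C with 7 CpG, and holds no GC box and 1 TATAAA, 91 bases before the start. The *Gdf11* window lies at chr10:128891669-128891968 on the minus strand, is 80.7% G and C with 36 CpG, and holds 9 GC boxes and 1 TATAAA 185 bases before the start. The *Fstl3* window lies at chr10:79777024-79777323 on the plus strand, is 70.7% G and C with 25 CpG, and holds 4 GC boxes, 2 CAGAC and 1 TATAAA 29 bases before the start. The windows of the ligands that were highest in MEFs thus lie on either side of the median base composition given next. Over all 32851 promoters of this length in the table, the median was 52.7% G and C with 7 CpG. CAGAC was found in 49.6% of them, GGGCGG in 35.7% and TATAAA in 13.6%. Of the 10 genes 9 had a promoter in the table, all but *Fst*. *Mstn* also has TATAAA 29 bases before its start, in the window chr1:53061390-53061689. The *Mstn* match is on the gene's own strand, whereas the *Fstl3* match is on the opposite strand. The AP-1 site TGANTCA, in 7.81% of all promoters, was found in *Mstn* alone among the 9, and the full CRE TGACGTCA, in 1.79% of all promoters, in none of them. A match is a run of letters and no measure of binding.

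Among the ligands, *Inhba* encodes the beta A subunit that forms activin A (chr13:16011851-16031621, plus strand, GRCm38). It was at 9.96, 11.3, 12.6 and 4.82 CPM in muscle FAP 2 to 5, at 2.72, 2.60, 4.41, 4.42 and 4.54 CPM in lung FAP 1 to 5, and at 140, 105, 109 and 169 CPM in MEF 1 to 4. No library of one group overlapped those of another, and muscle FAP 5 came close to the highest lung FAP. On the log2 scale *Inhba* was higher by 1.37 ± 0.36 (SE, n = 4 and 5) in muscle FAPs than in lung FAPs, an adjusted p of 0.000702 by edgeR. It fell by 3.76 ± 0.35 in muscle FAPs against MEFs (adjusted p = 3.15e-08, edgeR) and by 5.13 ± 0.24 in lung FAPs against MEFs (adjusted p = 8.47e-10, edgeR). These 3 differences passed under all 24 alternative settings run. On the opposite strand *B230303A05Rik* and *Gm48444* overlap *Inhba*, over chr13:16011851-16023423 and chr13:16025382-16031621. Neither is among the counted genes, and their part in the *Inhba* counts was not tested.

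*Inhbb* encodes the beta B subunit of activin B (chr1:119415465-119422248, minus strand). It was at 6.84, 8.22, 4.87 and 25.0 CPM in muscle FAP 2 to 5, at 5.81, 3.23, 4.05, 3.72 and 7.64 CPM in lung FAP 1 to 5, and at 10.1, 8.28, 7.18 and 12.8 CPM in MEF 1 to 4. Muscle FAP 5 was above every other library of the 3 groups, and the groups overlapped in every comparison. *Inhbb* passed as higher in muscle than in lung FAPs (log2 fold change 1.20 ± 0.56, adjusted p = 0.0298, edgeR). Without muscle FAP 5 the log2 difference was 0.44 with an adjusted p of 0.227, and it also missed the threshold without lung FAP 2 (adjusted p = 0.0545), lung FAP 3 (0.0570) or lung FAP 4 (0.0586). Against MEFs muscle FAPs did not pass, at 0.23 ± 0.54 (adjusted p = 0.655, edgeR), and without muscle FAP 5 the value was -0.55. Lung FAPs were lower than MEFs by a narrow margin, at -0.97 ± 0.29 (adjusted p = 0.0486, edgeR), and this call was lost in 12 of 24 alternative settings. Among these were leaving out lung FAP 1, 2, 3 or 4 or MEF 1, 2 or 4, at adjusted p-values of 0.0576 to 0.124. *Inhba* and *Inhbb* share no run of bases longer than 18 in their transcripts.

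*Gdf11* encodes growth differentiation factor 11, the closest relative of myostatin, known for patterning of the trunk in the embryo (chr10:128882295-128891718, minus strand). It was at 2.45, 3.87, 3.34 and 3.02 CPM in muscle FAP 2 to 5, at 0.458, 1.37, 1.40, 1.33 and 2.05 CPM in lung FAP 1 to 5, and at 15.2, 13.7, 17.4 and 16.7 CPM in MEF 1 to 4. The 3 groups did not overlap, and lung FAPs were lowest. *Gdf11* was higher by 1.26 ± 0.37 on the log2 scale in muscle FAPs than in lung FAPs (adjusted p = 0.00214, edgeR). It fell by 2.31 ± 0.16 in muscle FAPs against MEFs (adjusted p = 5.44e-06, edgeR) and by 3.58 ± 0.35 in lung FAPs against MEFs (adjusted p = 3.12e-08, edgeR). It passed in all 3 comparisons under every one of the 24 alternatives.

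*Mstn* encodes myostatin itself, which muscle fibres are known to secrete (chr1:53061640-53068079, plus strand). Its raw counts were 6, 2, 6 and 2 in muscle FAP 2 to 5, then 0, 0, 0, 0 and 8 in lung FAP 1 to 5, and 8, 5, 2 and 15 in MEF 1 to 4. The sums were 16 counts over muscle FAPs, 8 over lung FAPs and 30 over MEFs, where 3 counts over a group correspond to 0.0220 CPM in muscle FAPs, 0.0180 CPM in lung FAPs and 0.0166 CPM in MEFs. *Mstn* was removed by the filter on low counts. With no filter its log2 fold change was 1.23 for muscle FAP over lung FAP (adjusted p = 0.454, edgeR), -0.50 for muscle FAP over MEF (adjusted p = 0.745) and -1.73 for lung FAP over MEF (adjusted p = 0.222), so no difference was detectable at this depth. The 8 counts of lung FAP 5 came from the library with the highest sum of 10 muscle fibre markers, 57.4 CPM. Lung FAP 1 at 43.6 CPM and lung FAP 3 at 37.1 CPM came next, both with 0 *Mstn* counts. Lung FAP 2 was at 6.17 CPM and lung FAP 4 at 4.32 CPM, also with 0 counts. Muscle FAPs were at 12.5 to 18.9 CPM and MEFs at 26.0 to 30.6 CPM. The part of fibre RNA in lung FAP 5 was not tested.

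Among the receptors, *Acvr2a*, a type II receptor for activins (chr2:48814109-48903269, plus strand), overlapped between both FAP groups. It was at 48.6, 47.3, 53.6 and 44.0 CPM in muscle FAP 2 to 5, at 53.2, 49.8, 46.3, 43.3 and 57.4 CPM in lung FAP 1 to 5, and at 22.7, 19.98, 19.5 and 26.6 CPM in MEF 1 to 4. The FAP groups overlapped throughout, and every FAP library was above every MEF library. The log2 difference of muscle FAPs over lung FAPs was -0.05 ± 0.09 (adjusted p = 0.760, edgeR). Muscle FAPs were higher than MEFs by 1.12 ± 0.12 (adjusted p = 6.56e-07, edgeR) and lung FAPs by 1.17 ± 0.12 (adjusted p = 2.51e-07, edgeR). *Acvr2a* shares its last stretch with *Orc4* on the opposite strand, and whether the counting used strand is not given in the sources used here. *Orc4* was at 30.6 CPM in muscle FAPs, 31.6 CPM in lung FAPs and 46.1 CPM in MEFs, and its part in the *Acvr2a* counts was not tested.

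*Acvr2b*, the other type II receptor and a main receptor of myostatin (chr9:119402118-119434995, plus strand), was scarce. It was at 2.04, 1.92, 1.497 and 1.92 CPM in muscle FAP 2 to 5, at 0.143, 1.23, 0.864, 0.798 and 0.662 CPM in lung FAP 1 to 5, and at 0.388, 0.573, 0.704 and 0.512 CPM in MEF 1 to 4. Every muscle FAP library was above all others, whereas lung FAPs and MEFs overlapped. *Acvr2b* was higher in muscle than in lung FAPs by 1.32 ± 0.48 on the log2 scale (adjusted p = 0.0267, edgeR) and than in MEFs by 1.75 ± 0.19 (adjusted p = 0.00476, edgeR). The lung call is narrow: without muscle FAP 2, 3 or 5 in turn the adjusted p was 0.0615, 0.0608 and 0.0524, with log2 differences of 1.26, 1.29 and 1.29. The difference from MEFs missed the threshold with MEF 2 and 4 both left out (1.72, adjusted p = 0.0511). Lung FAPs over MEFs gave 0.44 ± 0.49 (adjusted p = 0.409, edgeR). The antisense gene *Gm47320* overlaps *Acvr2b* and is not among the counted genes, and its part was not tested.

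*Acvr1b*, the type I receptor of activins (chr15:101174067-101213684, plus strand), was at 42.8, 52.5, 48.9 and 34.4 CPM in muscle FAP 2 to 5, at 33.5, 40.7, 32.1, 29.4 and 27.1 CPM in lung FAP 1 to 5, and at 10.9, 10.9, 12.2 and 8.81 CPM in MEF 1 to 4. Muscle and lung FAPs overlapped, and both lay above all MEFs. It was higher in muscle than in lung FAPs by 0.45 ± 0.17 on the log2 scale (adjusted p = 0.0167, edgeR), a call that was lost without muscle FAP 3 (0.36, adjusted p = 0.0757) or muscle FAP 4 (0.40, adjusted p = 0.0610). Against MEFs the difference was 2.06 ± 0.17 in muscle FAPs (adjusted p = 1.44e-08, edgeR) and 1.60 ± 0.14 in lung FAPs (adjusted p = 1.37e-07, edgeR).

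Among the extracellular binders, *Fst* encodes follistatin (chr13:114452290-114458951, minus strand). It was at 260, 309, 313 and 224 CPM in muscle FAP 2 to 5, at 108, 53.6, 83.1, 112 and 106 CPM in lung FAP 1 to 5, and at 56.9, 70.1, 52.7 and 52.8 CPM in MEF 1 to 4. The means were 277 ± 42.3 CPM in muscle FAPs (SD, n = 4), 92.3 ± 24.3 CPM in lung FAPs (n = 5) and 58.1 ± 8.19 CPM in MEFs (n = 4). The lowest muscle FAP library was above every lung FAP and MEF library, and lung FAP 2 lay within the range of the MEFs. *Fst* was higher in muscle than in lung FAPs by 1.58 ± 0.23 on the log2 scale (adjusted p = 7.51e-06, edgeR), and by 1.35 with lung FAP 2 and 3 left out (adjusted p = 6.15e-06). It was higher than in MEFs by 2.25 ± 0.15 in muscle FAPs (adjusted p = 1.03e-07, edgeR) and by 0.67 ± 0.22 in lung FAPs (adjusted p = 0.00478, edgeR). *Fst* passed in all 3 comparisons under all 24 alternatives. The antisense gene *Gm47040* overlaps *Fst* and is not among the counted genes, and its part was not tested.

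*Fstl3*, another binder of activin and myostatin (chr10:79777272-79782630, plus strand), went the other way. It was at 2.77, 4.14, 2.74 and 5.69 CPM in muscle FAP 2 to 5, at 19.6, 16.9, 19.2, 17.8 and 17.3 CPM in lung FAP 1 to 5, and at 9.21, 11.4, 18.2 and 9.47 CPM in MEF 1 to 4. Muscle FAPs were below every other library, and MEF 3 alone among the MEFs reached the range of lung FAPs. *Fstl3* fell by 2.24 ± 0.25 on the log2 scale in muscle FAPs against lung FAPs (adjusted p = 3.79e-06, edgeR) and by 1.65 ± 0.34 against MEFs (adjusted p = 2.42e-05, edgeR). Both held under all 24 alternatives. Lung FAPs were higher than MEFs by 0.59 ± 0.23 (adjusted p = 0.0299, edgeR), which was lost in 7 alternatives, among them leaving out MEF 1 (0.47, adjusted p = 0.0993), MEF 2 (0.56, 0.0690), MEF 4 (0.48, 0.0953) or lung FAP 1 (0.57, 0.0521). *Prss57* overlaps the end of *Fstl3* on the opposite strand, over chr10:79781474-79782630. It was at 0.604 CPM in muscle FAPs, 1.42 CPM in lung FAPs and 0.134 CPM in MEFs, below *Fstl3* in each group. The effect of this overlap on the *Fstl3* counts was not tested.

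*Fstl1*, a secreted glycoprotein that mesenchymal cells are known to make (chr16:37776873-37836514, plus strand), was the most abundant of the 10 genes everywhere. It was at 3487, 2826, 2825 and 3142 CPM in muscle FAP 2 to 5, at 2558, 1805, 2451, 3017 and 2483 CPM in lung FAP 1 to 5, and at 648, 700, 599 and 688 CPM in MEF 1 to 4. The FAP groups overlapped, and every FAP library was above every MEF library. The difference between muscle and lung FAPs did not pass, at 0.32 ± 0.14 on the log2 scale (adjusted p = 0.0784, edgeR), although it did without lung FAP 4 (0.41, adjusted p = 0.0141), by DESeq2 (adjusted p = 0.0268) and by limma-voom (adjusted p = 0.0435). Muscle FAPs were higher than MEFs by 2.22 ± 0.09 (adjusted p = 5.64e-09, edgeR) and lung FAPs by 1.90 ± 0.13 (adjusted p = 1.87e-08, edgeR).

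**Figure D2:**
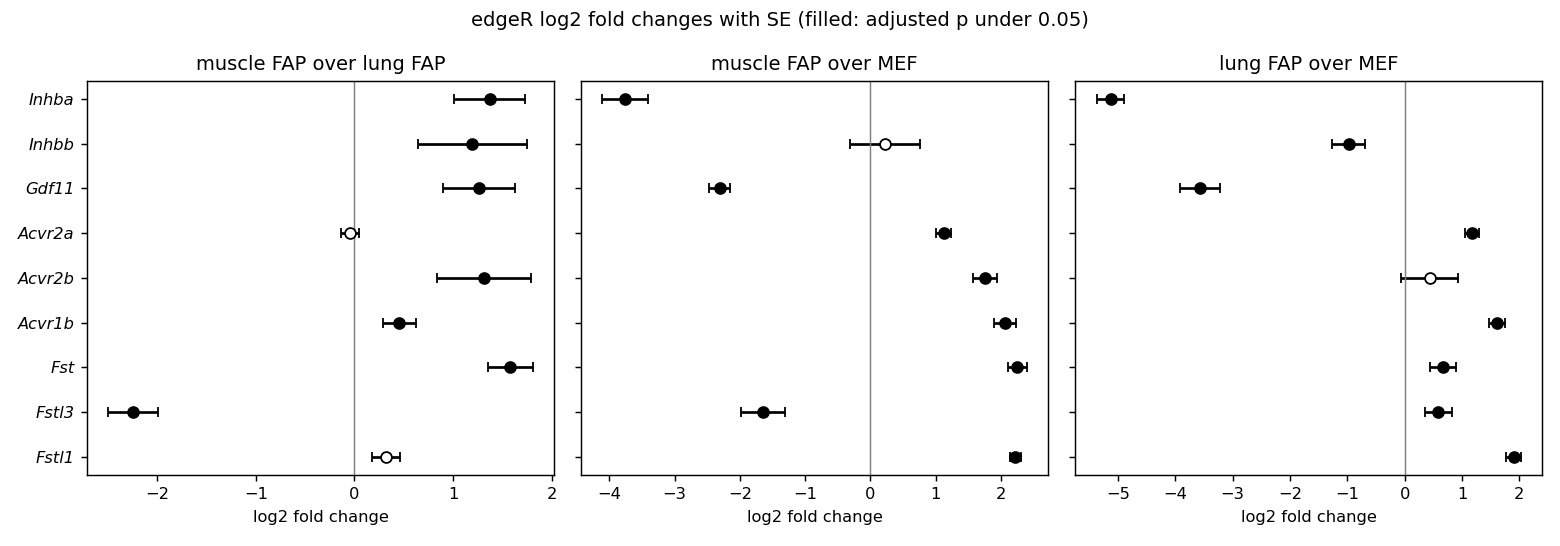
Log2 fold changes of the 9 tested genes with their SE for muscle FAP over lung FAP, muscle FAP over MEF and lung FAP over MEF, and filled points passed at an adjusted p under 0.05 (edgeR). *Inhba* and *Gdf11* lie right of 0 in the first panel and left of 0 in the others, whereas *Fstl3* is left of 0 in both muscle FAP panels and right of 0 in the third.

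The choice of scaling bears on the smaller of these differences. Scaled by library size alone, the median log2 fold change over all genes shifted by -0.41 for muscle FAP over lung FAP, by -0.58 for muscle FAP over MEF and by -0.17 for lung FAP over MEF. The called genes then split into 1730 higher and 7455 lower for muscle FAP against lung FAP, in place of 3574 higher and 3850 lower. For muscle FAP against MEF the split was 3757 higher and 8089 lower, in place of 5570 higher and 5756 lower. Under that scaling *Acvr1b* was at 0.04 (adjusted p = 0.855), *Inhbb* at 0.82 (0.107) and *Acvr2b* at 0.88 (0.122) for muscle FAP over lung FAP, *Acvr2a* passed as lower at -0.45 (0.00373), and the sign of *Fstl1*, which had not passed, turned to -0.08. *Fst*, *Gdf11* and *Inhba* stayed higher and *Fstl3* lower in muscle FAPs than in lung FAPs, all still passing.

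To compare the genes with each other, levels were also expressed as RPKM, which divides by the length of a gene's exons as well. In muscle FAPs *Fstl1* was at 625 ± 64.2 RPKM, *Fst* at 60.3 ± 9.22, *Acvr1b* at 10.1 ± 1.80 and *Acvr2a* at 8.51 ± 0.703 (SD, n = 4). Below them came *Inhbb* at 2.64 ± 2.18, *Fstl3* at 1.57 ± 0.572, *Inhba* at 1.51 ± 0.532, *Gdf11* at 0.781 ± 0.147, *Acvr2b* at 0.469 ± 0.0605 and *Mstn* at 0.0431 ± 0.0244 RPKM. Within that order the ranges overlapped between *Acvr1b* and *Acvr2a*, and along *Inhbb*, *Fstl3*, *Inhba* and *Gdf11*. In lung FAPs *Fstl1* was at 501 ± 88.1 RPKM and *Fst* at 20.1 ± 5.30, followed by *Acvr2a* at 8.79 ± 0.977, *Fstl3* at 7.42 ± 0.482 and *Acvr1b* at 7.37 ± 1.17, which overlapped (n = 5). *Inhbb* at 1.15 ± 0.428 lay above *Inhba* at 0.585 ± 0.155, and from there down to *Gdf11* at 0.325 ± 0.139, *Acvr2b* at 0.188 ± 0.100 and *Mstn* at 0.0178 ± 0.0398 RPKM each overlapped the next. In MEFs *Inhba* at 20.4 ± 4.72 RPKM came between *Fstl1* at 134 ± 9.23 and *Fst* at 12.7 ± 1.78, with no overlap between these 3 (n = 4). *Fstl3* at 4.93 ± 1.71, *Acvr2a* at 3.91 ± 0.571 and *Gdf11* at 3.88 ± 0.408 overlapped, as did *Acvr1b* at 2.43 ± 0.322 and *Inhbb* at 2.26 ± 0.582. *Acvr2b* at 0.139 ± 0.0335 and *Mstn* at 0.0603 ± 0.0421 RPKM closed the order, and their ranges overlapped as well.

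Ratios of 2 genes within a library, per length, do not depend on the scaling between libraries. *Fst* over *Inhba* lay between 34.7 and 64.9 in muscle FAPs, between 26.2 and 55.1 in lung FAPs and between 0.435 and 0.932 in MEFs. Both FAP groups thus held many more *Fst* than *Inhba* transcripts and overlapped, whereas every MEF library held more *Inhba* than *Fst*. *Fst* over *Fstl3* lay between 21.0 and 61.0 in muscle FAPs, between 1.69 and 3.35 in lung FAPs and between 1.55 and 3.29 in MEFs, so the balance between the 2 binders set muscle FAPs apart from both others. *Fstl3* over *Inhba* lay between 0.568 and 3.08 in muscle FAPs, between 9.97 and 18.8 in lung FAPs and between 0.146 and 0.437 in MEFs, with no overlap between the groups. *Inhba* over *Inhbb* lay between 0.128 and 1.72 in muscle FAPs, between 0.312 and 0.791 in lung FAPs and between 8.42 and 10.1 in MEFs, and muscle FAP 5 was the lowest. *Acvr2a* over *Acvr2b* lay between 15.9 and 24.7 in muscle FAPs, between 28.0 and 256 in lung FAPs and between 19.2 and 40.5 in MEFs, where the highest lung value came from lung FAP 1, with little *Acvr2b*. These ratios compare transcripts, not secreted protein.

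**Figure D3:**
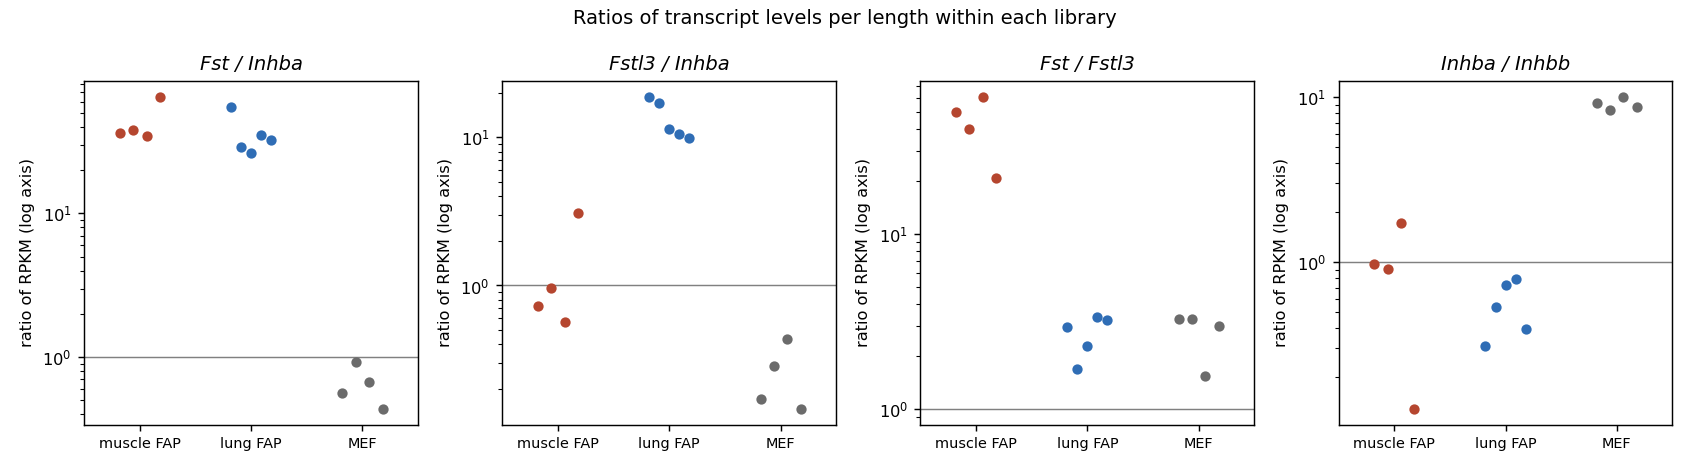
Ratios of RPKM between pairs of the genes within each library on log axes, with muscle FAP, lung FAP and MEF side by side and a grey line at a ratio of 1. *Fst* over *Inhba* lies above 1 in all FAP libraries and below 1 in all MEF libraries, and *Fst* over *Fstl3* is at 21.0 to 61.0 in muscle FAPs and at most 3.35 elsewhere.

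Muscle FAP 5 differed from the other muscle FAP libraries in several of the genes at once. It was the highest of the 4 for *Inhbb* and *Fstl3* and the lowest for *Inhba*, *Fst*, *Acvr2a* and *Acvr1b*. Its total of 41327292 counts was the lowest of the muscle FAPs. Leaving it out moved the muscle over lung difference of *Inhba* to 1.60, of *Fst* to 1.67 and of *Fstl3* to -2.50, all still passing.

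The genes whose pattern over the 13 libraries was most like each member were sought among 13275 genes by the root mean square difference of centred log2 CPM. *Fst* was nearest to *Gramd3* (0.22) and to the stress-response gene *Gadd45g* (0.23), which averaged 453 CPM in muscle FAPs, 154 CPM in lung FAPs and 93.9 CPM in MEFs. *Fstl1* was nearest to the cell cycle inhibitor *Cdkn1b* (0.12) and to *Fam114a1* (0.14). *Acvr2a* was near to the acetyltransferase gene *Kat6b* (0.09), and *Acvr1b* nearest to *Clasp2* and *Elmod3* (0.19 and 0.20). *Inhba* was nearest to *Sqle*, squalene epoxidase of sterol synthesis (0.43), at 25.5 CPM in muscle FAPs, 9.86 CPM in lung FAPs and 347 CPM in MEFs, and to *Elovl4* (0.45). *Gdf11* was near to the transcription factor gene *Six2* (0.39), and *Fstl3* nearest to *Tmem98* (0.28) and *Lrrc1* (0.34). *Inhbb* was nearest to *Irgm1* (0.32) and *Sertad4* (0.42), and *Acvr2b* to *Tmc8* (0.28) and *Cd209c* (0.37). The likeness rests mostly on the differences between the 3 groups and describes these libraries only.

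Other genes of the pathway were taken from 6 lists. Of 7 proteases that cut the precursors, 5 were higher, 0 lower and 2 did not pass in muscle FAPs against lung FAPs, with a median log2 fold change of 1.28. Beside all list counts for muscle FAP against lung FAP stand 23.2% higher and 25.0% lower over all tested genes, beside those for muscle FAP against MEF 36.1% and 37.3%, and beside those for lung FAP against MEF 37.8% and 36.6%. *Pcsk6*, a proprotein convertase, was at 1146 ± 234 CPM in muscle FAPs and 380 ± 144 CPM in lung FAPs (log2 fold change 1.59, adjusted p = 0.000851, edgeR). *Bmp1*, a metalloprotease that cuts the myostatin propeptide, was at 973 ± 102 CPM in muscle FAPs and 489 ± 112 CPM in lung FAPs (0.99, adjusted p = 0.000167), and its relative *Tll2* at 3.02 ± 1.02 CPM in muscle FAPs and 0.416 ± 0.323 CPM in lung FAPs (2.85, adjusted p = 0.00207). Against MEFs, 4 were higher and 1 lower in muscle FAPs, and 4 higher and 2 lower in lung FAPs. *Pcsk5*, another convertase, was at 203 ± 42.1 CPM in muscle FAPs, 71.1 ± 8.82 CPM in lung FAPs and 11.1 ± 0.902 CPM in MEFs, and *Tll1* ran the other way, at 8.74 ± 1.37 CPM in muscle FAPs, 11.2 ± 2.98 CPM in lung FAPs and 68.8 ± 12.96 CPM in MEFs. Scaled by library size alone the counts of higher and lower were 5 and 1 for muscle FAP against lung FAP, and 4 and 3 against MEF for each FAP group.

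Of 13 other ligands 8 were tested, and 2 were higher, 2 lower and 4 did not pass in muscle FAPs against lung FAPs. *Tgfb2* was at 127 ± 27.2 CPM in muscle FAPs and 47.8 ± 11.9 CPM in lung FAPs (log2 fold change 1.41, adjusted p = 2.06e-05, edgeR), and *Tgfb1* at 21.2 ± 1.97 CPM in muscle FAPs and 10.2 ± 3.16 CPM in lung FAPs (1.06, adjusted p = 0.000143). *Tgfb3* was lower, at 146 ± 9.45 CPM in muscle FAPs and 216 ± 26.7 CPM in lung FAPs. Against MEFs 5 ligands were higher and 1 lower in muscle FAPs, and 6 higher and 1 lower in lung FAPs, the lower one each time being *Tgfb1*, at 35.2 ± 1.97 CPM in MEFs. *Lefty1*, an antagonist of nodal, was at 7.93 ± 0.359 CPM in muscle FAPs, 8.64 ± 1.47 CPM in lung FAPs and 0.959 ± 0.345 CPM in MEFs. With library size alone the split in muscle FAPs was 2 higher and 4 lower against lung FAPs and 4 and 2 against MEFs.

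Of 14 other receptors and co-receptors 11 were tested, with 5 higher and 2 lower in muscle FAPs against lung FAPs (23.2% and 25.0% over all genes), but 2 higher and 5 lower when scaled by library size alone and 3 and 1 with lung FAP 2 and 3 left out. *Bmpr2*, a type II receptor of bone morphogenetic proteins, was at 131 ± 23.2 CPM in muscle FAPs and 49.1 ± 5.52 CPM in lung FAPs (1.41, adjusted p = 2.36e-06, edgeR). *Igsf1* passed by a narrow margin, at 12.1 ± 4.84 CPM in muscle FAPs and 5.50 ± 2.83 CPM in lung FAPs (1.14, adjusted p = 0.0489), and its call was lost in 15 of 24 alternatives, among them without muscle FAP 2, 4 or 5, lung FAP 1 or 5, or any 1 of the MEF libraries. Against MEFs 8 receptors were higher and 1 lower in muscle FAPs (36.1% and 37.3% over all genes), and 8 higher and 2 lower in lung FAPs (37.8% and 36.6%). The co-receptor *Tgfbr3* (betaglycan) was at 659 ± 96.6 CPM in muscle FAPs, 347 ± 75.1 CPM in lung FAPs and 15.7 ± 1.84 CPM in MEFs. *Bmpr1b* ran the other way, at 2.41 ± 0.799 CPM in muscle FAPs, 3.38 ± 1.68 CPM in lung FAPs and 13.9 ± 0.802 CPM in MEFs.

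Of 7 further extracellular binders 5 were tested, and 1 was higher and 1 lower in muscle FAPs against lung FAPs. *Wfikkn2*, which binds myostatin and GDF11, was at 2.13 ± 0.531 CPM in muscle FAPs, 8.09 ± 3.30 CPM in lung FAPs and 0.473 ± 0.172 CPM in MEFs, and the muscle over lung log2 fold change was -1.92 (adjusted p = 0.000359, edgeR). *Dcn*, the proteoglycan decorin, was at 20792 ± 1700 CPM in muscle FAPs and 13922 ± 3275 CPM in lung FAPs (0.58, adjusted p = 0.0239), a call lost in 5 alternatives, among them library size alone (0.18), without muscle FAP 4 or 5 and without lung FAP 3. In MEFs *Dcn* was at 73.9 ± 16.9 CPM. Against MEFs 3 binders were higher and 1 lower in muscle FAPs, and 3 higher and 0 lower in lung FAPs.

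Of 16 tested genes of SMAD signalling, 5 were higher and 3 lower in muscle FAPs against lung FAPs with a median of 0.03, near the 23.2% and 25.0% over all genes, but 1 higher and 9 lower when scaled by library size alone, and 4 higher and 2 lower with lung FAP 2 and 3 left out. *Tgif1*, a repressor of SMAD2 and SMAD3, was at 131 ± 28.4 CPM in muscle FAPs and 46.8 ± 17.5 CPM in lung FAPs (1.49, adjusted p = 4.78e-05, edgeR). *Smad3* itself was at 109 ± 17.7 CPM in muscle FAPs and 72.2 ± 14.8 CPM in lung FAPs (0.60, adjusted p = 0.00330), and did not pass with library size alone (0.20, adjusted p = 0.210). The 3 lower genes were *Smad2* (-0.26, adjusted p = 0.0395, edgeR), *Skil* (-0.39, adjusted p = 0.0337) and *Smad9* (-1.85, adjusted p = 0.00264). The calls of *Smad2* and *Skil* were lost in 8 and 6 alternatives. Against MEFs the list gave 9 higher and 4 lower in muscle FAPs, or 3 and 8 with library size alone, and 5 and 5 in lung FAPs, near the 37.8% and 36.6% over all genes.

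Of 9 genes known from textbooks to respond to SMAD2 and SMAD3 (*Smad7* and *Skil* stand in both lists), 5 were higher and 1 lower in muscle FAPs against lung FAPs with a median of 0.39, or 2 and 3 with library size alone. *Tgfbi* was at 1286 ± 330 CPM in muscle FAPs, 514 ± 117 CPM in lung FAPs and 19.6 ± 1.78 CPM in MEFs. Against MEFs, muscle FAPs had 3 of them higher and 5 lower (median -1.08), and lung FAPs 2 higher and 6 lower (median -0.93). The cell cycle inhibitor gene *Cdkn2b* was at 0.929 ± 0.255 CPM in muscle FAPs, 1.41 ± 0.804 CPM in lung FAPs and 94.9 ± 6.03 CPM in MEFs. *Ctgf* was at 631 ± 42.0 CPM in muscle FAPs, 475 ± 88.7 CPM in lung FAPs and 1419 ± 155 CPM in MEFs, and *Cdkn1a* at 321 ± 12.9 CPM in muscle FAPs, 201 ± 60.7 CPM in lung FAPs and 1177 ± 185 CPM in MEFs. These response genes answer to other signals as well. The summed genes of dividing cells, 56.1 to 83.7 CPM in MEFs, were higher there than in both FAP groups. *Cdkn2b*, *Ctgf* and *Cdkn1a* were also highest in MEFs, whereas *Tgfbi* was lowest there. The part of growth state in these differences was not tested.

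**Figure D4:**
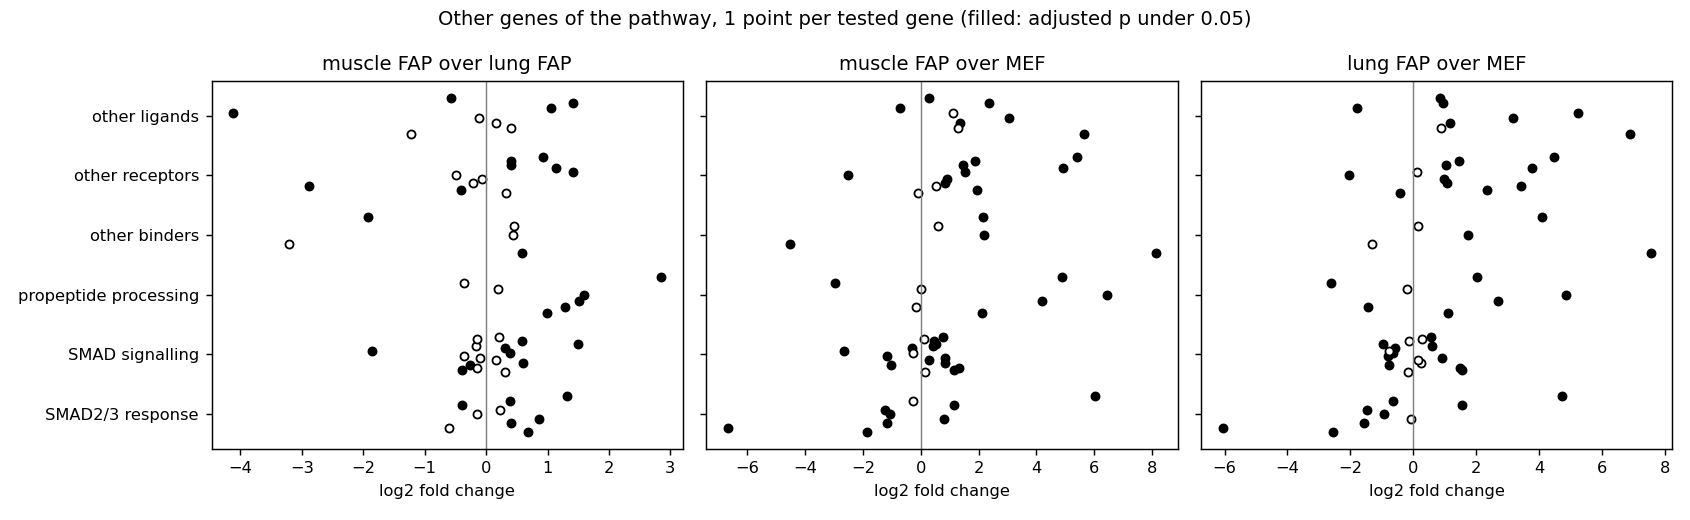
Log2 fold changes of the tested genes of 6 pathway lists for muscle FAP over lung FAP, muscle FAP over MEF and lung FAP over MEF, with 1 point per gene, and filled points passed at an adjusted p under 0.05 (edgeR). The proteases lean right of 0 in the first panel (5 of 7 passing as higher), whereas the SMAD lists lie on both sides.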

How the data were processed

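RNA was measured by bulk sequencing in 13 mouse libraries, grouped by the sample titles in the labels. Per the labels' protocols, Trizol and a spin column gave total RNA, from which Illumina libraries were made. Reads were processed with Bowtie2 2.1.0.0, HTSeq and edgeR on mm10, per the submitters' processing notes. Not given in the sources used here are the gene annotation, the strand setting, any batches and the versions of HTSeq and edgeR. The authors deposited a table of raw read counts for 23418 genes, with 0 columns of other samples. Counting whose strand is unknown cannot separate a gene from an overlapping antisense gene.

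From these counts, levels were computed as CPM after TMM scaling. Tests used edgeR 4.0.16 in R 4.3.3, a quasi-likelihood fit with robust dispersion, over all 13 libraries with 1 coefficient per group. The filter filterByExpr left 15412 genes, and p-values were adjusted by Benjamini-Hochberg over all of these at 0.05. SEs were computed from log2 CPM per library (prior count 2). RPKM used the union of exons of GENCODE vM21 (GRCm38), which may differ from the authors' annotation. The 3-count floor covers counting error only. The edgeR fit was tested on simulated counts.

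All 10 genes are named. From each pathway list the text names passing genes of the largest log2 fold change in a comparison, given a mean of 5 CPM or more in the higher group, and some further passing genes as examples. The most similar genes were sought among non-members with at least 1 CPM. Some genes that these rules take are not reported here. The genes, the lists and the alternatives were chosen with earlier results of these data known. Nothing in the labels ties the replicates to separate animals or cultures, so a p-value measures only how these samples spread, and that spread may be technical. No pair of libraries agreed within sampling noise. The alternatives were DESeq2 1.42.0 size factors, upper-quartile scaling, library size only, no filter, at least 5 CPM in 4 libraries, the DESeq2 Wald test, limma-voom (limma 3.58.1), a fit of the compared groups alone, a block on the replicate number, lung FAP 2 and 3 or MEF 2 and 4 left out together, and each library left out in turn.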

Additional observations from a re-analysis of the deposited data

Results flagged for a closer look

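Libraries far from the others of their group were sought in 30 sets of values, each 1 gene in 1 group, by the 95% limit of Dixon's test, which chance passes in about 1 of 20 sets. *Inhbb* was at 25.0 CPM in muscle FAP 5, where the other muscle FAP libraries were at 4.87 to 8.22 CPM. *Mstn* was at 0.241 CPM in lung FAP 5, from 8 counts, where the other lung FAP libraries were at 0. With all others at 0 any count at all passes that limit, so for *Mstn* passing it carries no weight.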

How the results depend on the processing

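Over 645 recomputed log2 fold changes of the 9 tested genes, 597 kept their direction and their side of the threshold, 37 no longer passed, 4 newly passed and 7 changed sign, each of the 7 in a difference that had not passed. Scaled by library size alone, 3 of the genes were higher and 2 lower for muscle FAP against lung FAP, in place of 6 and 1, while the median gene shifted by -0.41. The median of the genes for muscle FAP over MEF was 0.54 under that scaling and 0.65 with no filter, in place of 1.12. The sign changes were *Fstl1* for muscle FAP over lung FAP (-0.079, library size alone), *Acvr2b* for lung FAP over MEF (-0.041 without lung FAP 2 and 3) and *Inhbb* for muscle FAP over MEF (-0.34 with library size alone, -0.44 by limma-voom, -0.29 with the replicate block). Leaving out 1 library at a time, *Inhbb* for muscle FAP over MEF ranged from -0.55 to 0.45 and *Acvr2a* for muscle FAP over lung FAP from -0.10 to 0.016. The cause of these shifts was not tested. Same-numbered libraries of different groups did not deviate together (correlations from -0.05 to 0.06). Such correlations cannot tell whether they share an animal or preparation, whose effect may be small or differ by tissue. Under the replicate block 6 genes were higher and 1 lower for muscle FAP against lung FAP, as without it. A filter of at least 5 CPM in 4 libraries removed *Acvr2b*. With 4 or 5 libraries a group, differences such as 0.32 for *Fstl1* lie near what the spread lets pass, and *Mstn* is limited by its depth of at most 15 counts a library.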
